A study of Rattus norvegicus with 54 samples.

Results

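Aminoacyl-tRNA synthetases are the enzymes that join each amino acid to its transfer RNA, the step that supplies charged tRNA to the ribosome. Mammalian cells keep separate cytosolic and mitochondrial sets, both encoded in the nucleus; several cytosolic enzymes assemble with scaffold proteins into a multi-synthetase complex, and the others work free of it. Under amino acid shortage, the transcription factor ATF4 raises many genes of the cytosolic set together with genes of amino acid synthesis and transport. Here, the synthetases were taken by symbol from the heart transcriptome of 54 rats: 34 of 36 listed genes were found among the 10257 genes measured, of which 20 were cytosolic and 14 mitochondrial (symbol ending in 2), while Iars2 and Mars2 were not analysed here. Gars and Kars also encode the mitochondrial enzyme for their amino acid and count as cytosolic here.

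The study asked how work during the rest phase, with and without food during work, affects the heart. Male wild-type Wistar rats, 7 to 8 weeks old at the start, lived in 12 h of light and 12 h of darkness. Control (C) rats were left undisturbed with food at all times, shift worker (W) rats spent ZT2 to ZT10 (ZT, hours after lights on) of each weekday for 5 weeks in a slowly turning drum with food at all times, and WRF rats did the same work but had food only outside it. Hearts were collected on a free day at ZT1, ZT5, ZT9, ZT13, ZT17, or ZT21, with 18 rats per group and 3 per group and time. Whole hearts with atria were crushed, and polyA RNA was measured as fpkm (fragments per kilobase of transcript, scaled to the library), a level per transcript length that allows genes to be compared. In such bulk RNA, fewer cells of a type and less RNA per cell cannot be told apart.

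Some libraries stood apart before any comparison. The depth implied by the steps between low values spanned 3.01-fold over the 54 libraries, with group medians of 0.938 to 1.07 times that of all libraries. Myl7, an atrial myosin light chain, exceeded 100 fpkm in 6 C, 7 W, and 9 WRF libraries. WRF51 held 1419 fpkm of Ager, a lung epithelial gene, and WRF62 held 106 fpkm of Cd3e, a T cell gene, against group medians of 3.65 and 1.61 fpkm. W21 held 1027 fpkm of Alb, a liver gene, against a group median of 9.01 fpkm. The 6 rats WRF1 to WRF6, which cover the 6 times once, all had Myl7 at or under 100 fpkm, against 3 of the other 12 WRF rats. The numbering of the rats gives 9 such series of 6, 3 per group, so series and group cannot be fully told apart.

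The synthetase promoters are shown first because their sequence is a feature that the choice of genes did not use. RefSeq promoters (build GRCr8, from 250 bases before to 50 after the gene start) were matched for 17 of 20 cytosolic and 14 of 14 mitochondrial genes; Dars, Gars, and Rars were not matched. The motif TGATGNAA, the core of the element that ATF4 binds with C/EBP proteins, was searched on both strands. It was found in 7 of 17 cytosolic promoters (41.2%) and 0 of 14 mitochondrial promoters, against 3.98% of all 33469 promoters. The 8 matches, in capitals with up to 20 bases on each side and on the strand of the gene, were:
Iars (chr17:15193649-15193696, minus strand): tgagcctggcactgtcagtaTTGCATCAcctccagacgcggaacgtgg
Mars (chr7:65023743-65023790, minus strand): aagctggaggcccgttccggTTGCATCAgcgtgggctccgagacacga
Aars (chr19:55908350-55908397, plus strand): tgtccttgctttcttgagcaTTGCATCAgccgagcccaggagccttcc
Aars, further match (chr19:55908471-55908518, plus strand): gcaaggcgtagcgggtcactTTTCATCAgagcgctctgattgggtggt
Cars (chr1:208225325-208225372, minus strand): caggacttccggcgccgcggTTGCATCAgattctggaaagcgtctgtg
Nars (chr18:60275769-60275816, minus strand): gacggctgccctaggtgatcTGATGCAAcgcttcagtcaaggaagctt
Tars (chr2:62114802-62114849, minus strand): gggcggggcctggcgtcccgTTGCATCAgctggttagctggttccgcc
Yars (chr5:146820181-146820212, plus strand): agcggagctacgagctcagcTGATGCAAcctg

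In 7 of these 8 matches the variable base is C (TGATGCAA, or TTGCATCA read from the other strand), and the further Aars match reads TTTCATCA. A match says only that these letters lie in this window, and binding was not measured. The letters CCGGAAGT, a core bound by ETS-family factors such as GABP, were found in 7 of 17 cytosolic promoters (Lars, Mars, Cars, Farsa, Hars, Nars, and Wars) and 3 of 14 mitochondrial promoters (Hars2, Pars2, and Rars2), against 3.81% of all promoters. The E-box CACGTG, read by the circadian clock proteins, was found in 5 of 17 cytosolic promoters (Iars, Aars, Farsb, Tars, and Vars) and 1 of 14 mitochondrial promoters (Ears2), against 6.42% of all promoters. The cytosolic Hars and mitochondrial Hars2 genes lie head to head, with starts 144 bases apart, so 243 bases of their promoter windows are the same DNA. The windows of Hars, Sars, and Pars2 are printed because these genes were called higher in WRF rats, with the values given further on. Capitals mark CCGGAAGT on either strand, of which Sars has none:
Hars (chr18:28672663-28672962, minus strand): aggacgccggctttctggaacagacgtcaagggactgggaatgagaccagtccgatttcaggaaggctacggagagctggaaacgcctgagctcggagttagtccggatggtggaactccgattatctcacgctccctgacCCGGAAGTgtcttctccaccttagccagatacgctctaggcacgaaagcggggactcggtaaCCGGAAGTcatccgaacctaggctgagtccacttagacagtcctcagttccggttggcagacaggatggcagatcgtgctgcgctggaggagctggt
Sars (chr2:198769316-198769615, minus strand): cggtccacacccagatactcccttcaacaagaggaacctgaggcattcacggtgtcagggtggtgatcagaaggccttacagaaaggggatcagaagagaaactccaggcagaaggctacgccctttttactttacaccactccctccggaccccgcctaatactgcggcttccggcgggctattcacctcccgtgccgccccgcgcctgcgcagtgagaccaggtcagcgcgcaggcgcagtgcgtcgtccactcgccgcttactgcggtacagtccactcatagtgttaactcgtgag
Pars2 (chr5:126662669-126662968, plus strand): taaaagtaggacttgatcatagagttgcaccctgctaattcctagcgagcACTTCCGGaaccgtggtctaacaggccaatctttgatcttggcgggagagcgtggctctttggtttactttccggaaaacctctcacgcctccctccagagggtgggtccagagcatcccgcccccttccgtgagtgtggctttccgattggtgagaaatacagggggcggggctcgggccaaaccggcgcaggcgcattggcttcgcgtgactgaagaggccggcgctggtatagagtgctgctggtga

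Cytosolic synthetases were the more abundant class in the control heart. Median levels in C rats ran from 46.1 fpkm for Kars (lysine) and 34.1 fpkm for Qars (glutamine) down to 4.63 fpkm for Cars (cysteine) among cytosolic genes. Among mitochondrial genes they ran from 21.2 fpkm for Tars2 (threonine) and 12.2 fpkm for Fars2 (phenylalanine) down to 1.34 fpkm for Pars2 (proline). Summed per rat, cytosolic levels were 295 to 373 fpkm (median 329) and mitochondrial levels 76.2 to 99.5 fpkm (median 94.0) in C rats. The order was turned for some amino acids. Tars was below Tars2 in 52 of 54 rats, with a median ratio of 0.471 in C rats, and Cars was below Cars2 in 52 of 54 rats, with a median ratio of 0.414. In both cases the exceptions were WRF51 and WRF62. Farsa and Farsb, the subunits of the cytosolic phenylalanine enzyme, were below Fars2 in 47 and 49 of 54 rats.

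To ask whether food-restricted shift work changed these levels, WRF and C rats were compared with the Kruskal-Wallis test over the 3 groups (adjusted p at most 0.05) followed by the Mann-Whitney test (p under 0.05). Gars, Hars, Sars, and Pars2 rose in WRF rats and 0 of 34 synthetases fell. Of all genes, 8.13% were called higher and 0.721% lower, so 4 of 34 members is close to the background. Medians were higher in WRF than in C rats for 18 of 20 cytosolic and 7 of 14 mitochondrial genes, against 6421 of 10257 for all genes, and the median log2 ratios of these medians were 0.10, -0.01, and 0.08. With each library rescaled by the median of its ratios to all libraries, 0 members were called, against 223 of 10257 genes higher and 211 lower, and the cytosolic genes with a higher median in WRF rats fell to 11 of 20, the mitochondrial genes to 3 of 14, and all genes to 50.1%.

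None of the 8 synthetases of the multi-synthetase complex was called, against 8.13% of all genes higher and 0.721% lower. Its scaffold proteins are given further on. Gars (glycine) lies outside the complex. Its levels were 14.6 to 20.9 fpkm in C rats (median 17.5), 14.8 to 20.2 fpkm in W rats (median 16.8), and 14.8 to 30.3 fpkm in WRF rats (median 21.1). The ranges overlapped, but 9 of 18 WRF rats lay above every C rat. The limma difference between WRF and C rats was 0.20 ± 0.06 (SE) on the log2 scale (adjusted p = 0.0235, Kruskal-Wallis adjusted p = 0.0243).

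Sars (serine) ran from 19.2 to 33.8 fpkm in C rats (median 25.7), from 20.1 to 29.6 fpkm in W rats (median 25.2), and from 22.5 to 49.2 fpkm in WRF rats (median 31.2). Only WRF44, WRF45, WRF51, and WRF62 exceeded the highest C rat. Its difference was 0.24 ± 0.07 (SE, limma adjusted p = 0.0281, Kruskal-Wallis adjusted p = 0.0396). Leaving out W21 ended the rank call of Sars and kept those of Gars, Hars, and Pars2. Hars (histidine) ran from 12.9 to 20.9 fpkm in C rats (median 15.8), from 12.9 to 20.3 fpkm in W rats (median 15.4), and from 13.9 to 29.3 fpkm in WRF rats (median 17.7). The only WRF rats above the C range were WRF51 and WRF62. Its call rested on the rank tests (Kruskal-Wallis adjusted p = 0.0352), since the limma difference of 0.17 ± 0.06 (SE) had an adjusted p of 0.0575. Pars2, the mitochondrial proline enzyme and the lowest of the class, ran from 0.771 to 1.63 fpkm in C rats (median 1.34), from 0.901 to 1.46 fpkm in W rats (median 1.23), and from 1.18 to 2.93 fpkm in WRF rats (median 1.51). Its groups overlapped broadly, with 3 WRF rats above the C range. The Kruskal-Wallis adjusted p was 0.0195 and the limma difference 0.15 ± 0.06 (SE, adjusted p = 0.0648).

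**Figure D1:**
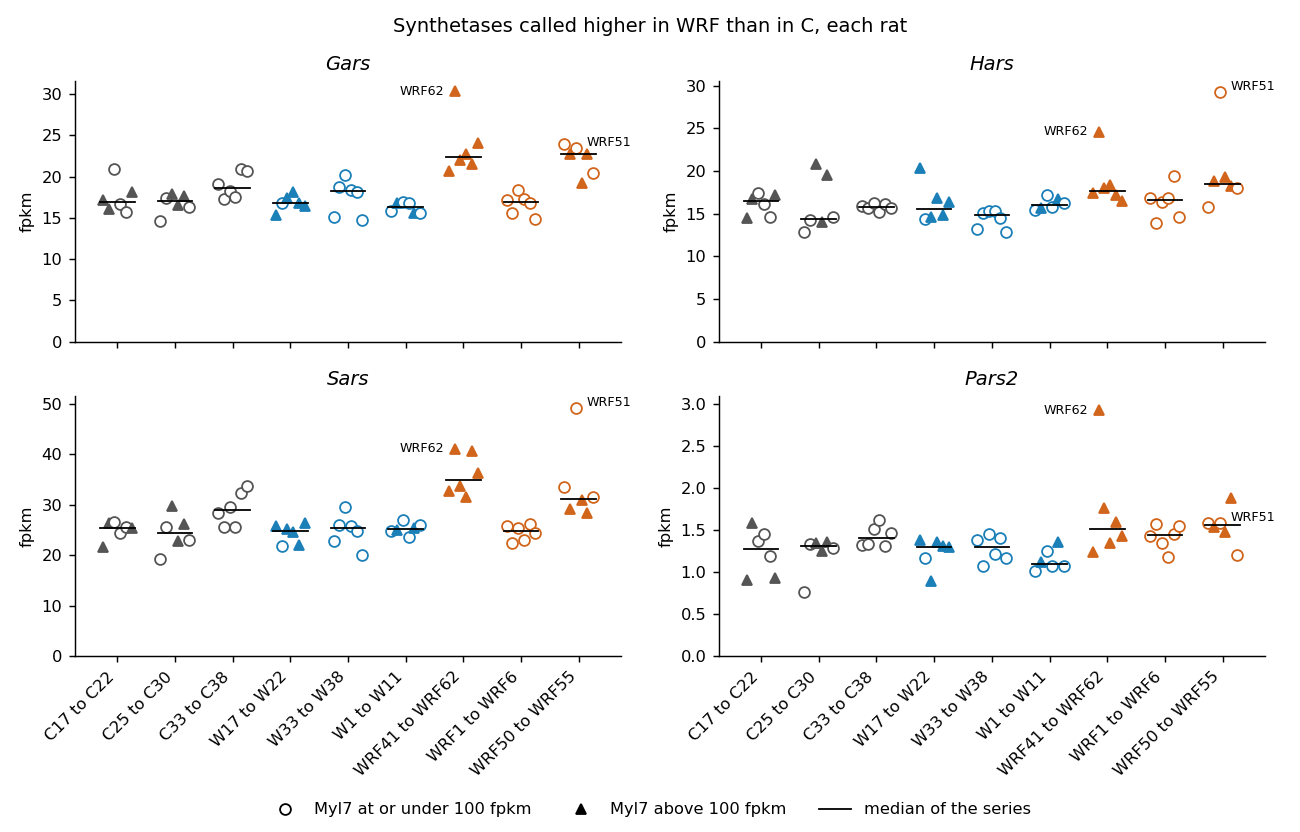
Levels in fpkm (vertical axes) of the 4 synthetases called higher in WRF than in C rats, for each rat, by series of 6 rats (horizontal axis; C grey, W blue, WRF orange; within a series, rats run from ZT1 to ZT21). Filled triangles are libraries with Myl7 above 100 fpkm, and bars are series medians; in Gars and Sars the 6 rats WRF1 to WRF6 lie below the other 12 WRF rats, in Hars and Pars2 they overlap them.

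By limma alone, Gars, Sars, and Yars (tyrosine) were higher in WRF than in C rats and 0 members were lower, against 11.3% of all genes higher and 1.68% lower; with rescaled libraries these shares were 5.86% and 5.03% and the members numbered 1 higher and 2 lower. Yars ran from 5.82 to 11.4 fpkm in C rats (median 8.81) and from 7.77 to 22.9 fpkm in WRF rats (median 11.01), with 8 WRF rats above the C range. Its difference was 0.28 ± 0.09 (SE, limma adjusted p = 0.0296), but its Kruskal-Wallis adjusted p was 0.0640. The other cytosolic enzymes outside the complex had limma differences from 0.02 in Vars (valine) to 0.22 in Farsa, and in the complex they ran from -0.16 in Iars (isoleucine) to 0.11 in Qars, none of them called. Mitochondrial differences ran from -0.24 ± 0.12 (SE) in Nars2 (asparagine, limma adjusted p = 0.152) to 0.17 ± 0.06 in Rars2 (arginine, limma adjusted p = 0.0571). Cytosolic genes with TGATGNAA in the promoter had a median difference of 0.15 (7 genes, 6 of them above 0) and those without it 0.11 (10 genes, 10 above 0), which is given as a description.

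**Figure D2:**
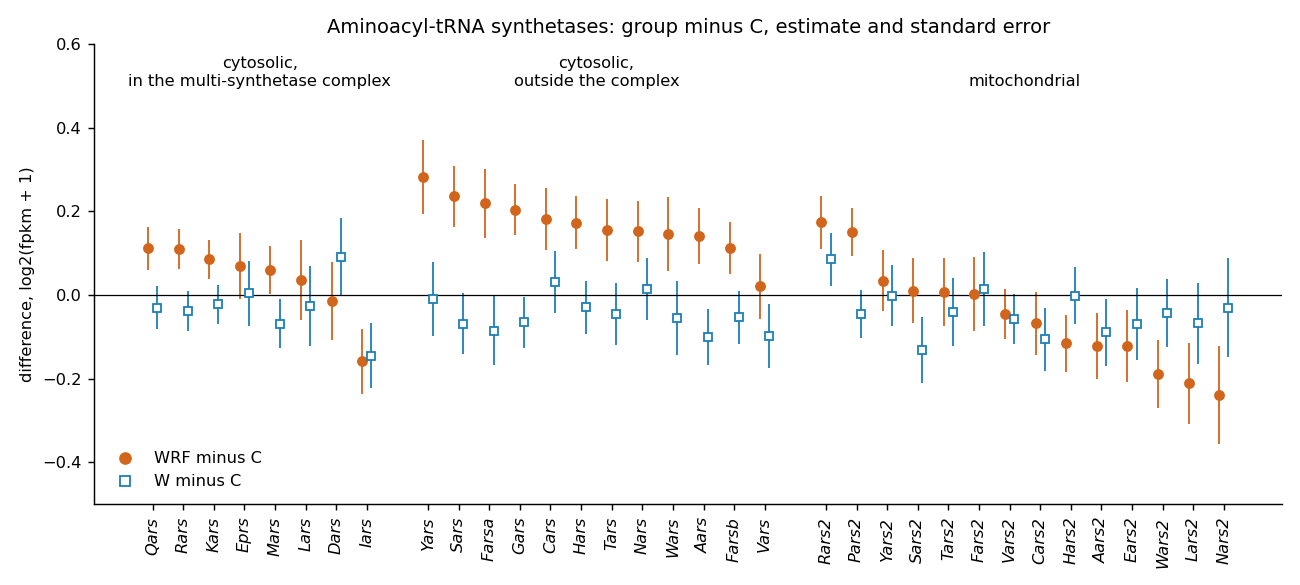
Difference from C rats on the log2(fpkm + 1) scale with its standard error (vertical axis) for each synthetase (horizontal axis), WRF minus C as orange circles and W minus C as blue squares, 18 rats per group. WRF minus C lies above 0 for 12 of 12 cytosolic genes outside the complex and 6 of 8 within it, while mitochondrial genes lie on both sides; with rescaled libraries 11 of 20 cytosolic medians were above those of C rats.

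For shift work with free access to food no synthetase was called. Comparing W with C rats by the rank tests, 0 of 34 synthetases were called in either direction, against 0.234% of all genes higher and 0.195% lower, and only Iars reached an unadjusted Mann-Whitney p under 0.05. Its median was 8.03 fpkm in C and 7.39 fpkm in W rats, and the groups overlapped (5.87 to 10.3 and 4.60 to 8.37 fpkm). By limma, 0 members had an unadjusted p under 0.05, against 0.916% of all genes. Comparing WRF with W rats, Gars, Hars, Sars, and Pars2 were again called higher, against 8.26% of all genes, and 0 were called lower, against 0.692%. This comparison shares the WRF rats with that against C rats, and its limma test called 8 members higher, against 12.4% of all genes, and 0 lower, against 1.83%.

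Within the WRF group, values differed by series, which was looked at after the values were seen. For Gars, WRF1 to WRF6 ran from 14.8 to 18.4 fpkm and the other 12 WRF rats from 19.2 to 30.3 fpkm. For Sars, WRF1 to WRF6 ran from 22.5 to 26.2 fpkm and the other 12 from 28.3 to 49.2 fpkm. These ranges do not touch in either gene. Among all genes, 2.65% were higher in each of the 12 than in each of the 6, and among the members these were Gars and Sars. In Aars (alanine), WRF1 to WRF6 ran from 14.6 to 18.8 fpkm and the other 12 from 18.3 to 27.9 fpkm, with 11 of 12 above the C median and 1 of 6.

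Set against all C rats by limma, WRF1 to WRF6 had 0 members called, against 0.185% of all genes higher and 0.0877% lower. The median differences were -0.05 over cytosolic and -0.03 over mitochondrial genes. In WRF41 to WRF62, 10 of 20 cytosolic genes were higher (Aars, Cars, Farsa, Gars, Kars, Mars, Qars, Sars, Tars, and Yars), against 23.4% of all genes. Among mitochondrial genes of this series Pars2 was higher and Nars2 lower, against 6.92% of all genes lower. In WRF50 to WRF55, 8 of 20 cytosolic genes were higher (Aars, Farsa, Gars, Hars, Rars, Sars, Tars, and Yars) and 1 of 14 mitochondrial genes (Rars2), against 15.5% of all genes higher, and 0 were lower, against 2.10% of all genes. All 3 comparisons share the 18 C rats. Over all genes the median differences were -0.02 in WRF1 to WRF6, 0.11 in WRF41 to WRF62, and 0.14 in WRF50 to WRF55. WRF41 to WRF62 and WRF50 to WRF55 were also pooled, with WRF51 and WRF62 left out. WRF1 to WRF6 were kept out of this pool because of these same values, so its counts are a description and test nothing. In the pool 9 cytosolic genes were higher and Iars lower, and Fars2 and Sars2 were higher and Ears2 and Nars2 lower. Of all genes, 25.9% were higher and 12.1% lower. The median differences were then 0.12 over cytosolic, 0.04 over mitochondrial, and 0.07 over all genes.

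**Figure D3:**
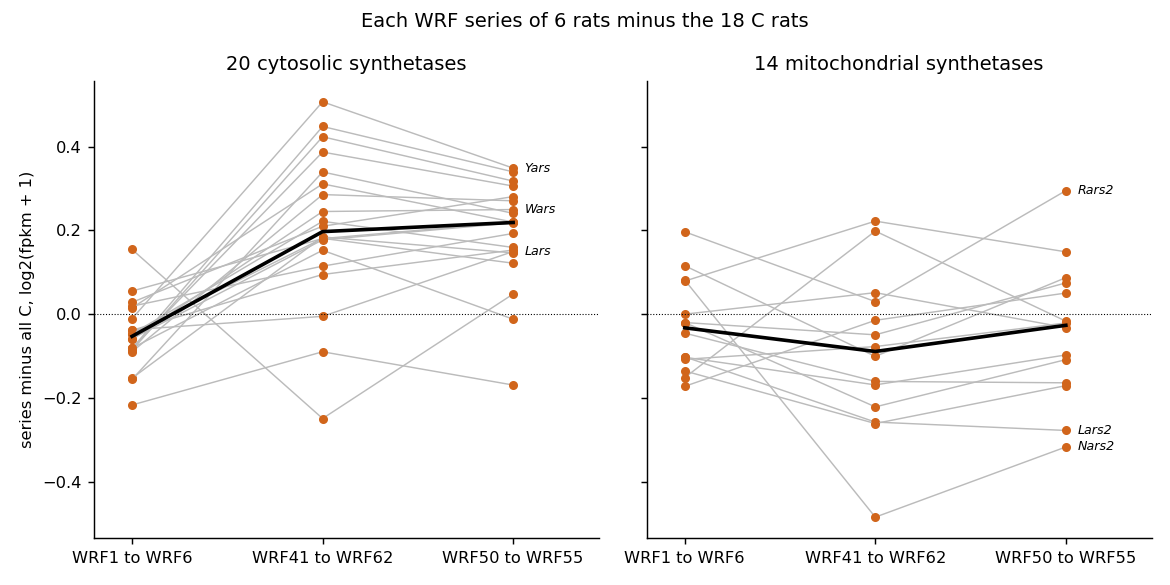
Difference of each WRF series of 6 rats from the 18 C rats on the log2(fpkm + 1) scale (vertical axis), 1 point per synthetase, with grey lines joining the values of a gene and the black line giving the class median. The cytosolic median is -0.05 in WRF1 to WRF6, 0.20 in WRF41 to WRF62, and 0.22 in WRF50 to WRF55, while the mitochondrial medians are -0.03, -0.09, and -0.03; without WRF51 and WRF62, the last 2 series together have medians of 0.12 and 0.04.

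Since WRF1 to WRF6 were singled out on these values, their distance from the other 12 WRF rats is a description with no test. The other 12 exceeded them by 0.43 ± 0.07 (SE) on the log2 scale in Gars, 0.47 ± 0.09 (SE) in Sars, and 0.44 ± 0.12 (SE) in Yars. Without WRF51 and WRF62 these were 0.38, 0.40, and 0.30. The median difference was 0.24 over cytosolic, -0.03 over mitochondrial, and 0.14 over all genes, and without those libraries 0.16, -0.01, and 0.07.

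Beside the series stands the atrial content of the hearts, whose part in the result was not tested apart from the split given here. In libraries with Myl7 at or under 100 fpkm, the Gars median was 17.5 fpkm for C, 16.8 fpkm for W, and 17.3 fpkm for WRF rats, and in those above it 17.4, 16.8, and 22.7 fpkm. Median Sars was 25.7, 24.9, and 25.8 fpkm below the limit and 25.8, 25.2, and 32.8 fpkm above it. In C and W rats the medians on either side of the limit were close to each other, and in WRF rats they were apart. Fitted within the libraries at or under the limit, 0 members differed between WRF and C rats, against 0.263% of all genes higher and 0.00975% lower. Fitted within those above it, Aars, Farsa, Gars, Sars, and Sars2 were higher and Nars2 and Wars2 (tryptophan) lower, against 5.72% of all genes higher and 10.3% lower, and 7 members were higher and 0 lower than in W rats, against 7.28% and 5.79%. In 1 fit over all libraries, the WRF minus C difference was larger above the limit in Vars and Sars2 and smaller in 0 members, against 0.419% and 5.20% of all genes. For Gars that contrast was 0.34 ± 0.11 (SE, limma adjusted p = 0.0635) and for Sars 0.30 ± 0.15 (SE, limma adjusted p = 0.194), so neither passed. Of the 9 WRF libraries at or under the limit, 6 are WRF1 to WRF6.

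WRF51 and WRF62 held the highest cytosolic levels of the group, in libraries with few cardiomyocyte transcripts. Ckm, a cardiomyocyte marker, stood at 31.5 fpkm in WRF51 and 170 fpkm in WRF62, against 1274 to 2734 fpkm in the other WRF rats. Their summed cardiomyocyte markers were 650 and 2850 fpkm, against 26492 fpkm or more in the others. How far their synthetase levels are those of heart muscle was not tested. In WRF51, 14 of 20 cytosolic genes lay above all 16 remaining WRF rats (median ratio to their median 1.42), and 5 of 14 mitochondrial genes lay below all of them (median ratio 0.631). In WRF62, 18 of 20 cytosolic genes lay above them (median ratio 1.51), with mitochondrial genes at a median ratio of 0.882. Wars, the tryptophan enzyme that interferon gamma is known to raise, reached 22.7 fpkm in WRF51 and 17.99 fpkm in WRF62, against 6.66 to 12.4 fpkm in the others. Lars2 (leucine) fell to 1.99 fpkm in WRF51, against 2.65 to 6.76 fpkm in the others. Without both libraries, Pars2 alone was still called higher in WRF than in C rats by the rank tests, against 587 of 10257 genes; without WRF51 alone, or WRF62 alone, the calls were Gars and Pars2. By limma without both, 0 members were higher and Iars was lower in WRF than in C rats (-0.21 ± 0.07 SE, adjusted p = 0.0476), against 9.32% of all genes higher and 1.59% lower. The Gars difference was then 0.16 ± 0.06 (SE, limma adjusted p = 0.0550).

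Cytosolic and mitochondrial sets were then set against each other inside each rat, where the scaling of a library largely cancels. The mean log2 level of the 20 cytosolic genes minus that of the 14 mitochondrial genes ran from 1.15 to 1.66 in C rats (median 1.30), from 1.20 to 1.63 in W rats (median 1.29), and from 1.13 to 2.30 in WRF rats (median 1.40). The highest values of the WRF rats were 2.30 in WRF51, 2.18 in WRF62, and 1.80 in WRF44, and the C and W maxima were C27 and W17. WRF44, C27, and W17 held the highest Myl7 of their groups, at 23938, 16085, and 20489 fpkm. Without WRF51 and WRF62, the WRF median was 1.39. No p is given for these scores, since the genes were chosen with results known.

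**Figure D4:**
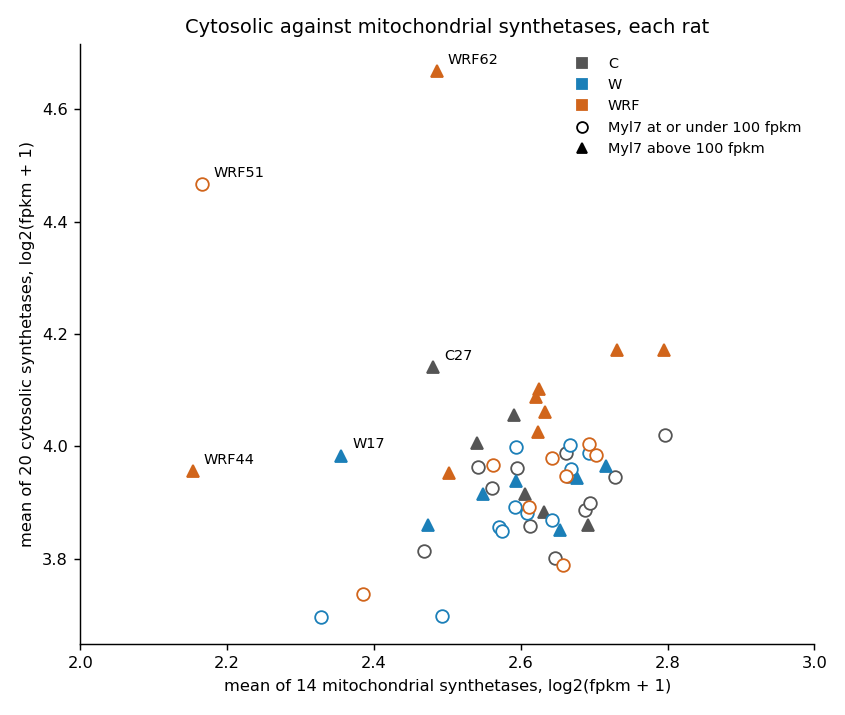
Mean log2(fpkm + 1) of the 20 cytosolic synthetases (vertical axis) against that of the 14 mitochondrial synthetases (horizontal axis), 1 point per rat (C grey, W blue, WRF orange; triangles, Myl7 above 100 fpkm; circles, at or under it). WRF51 and WRF62 lie above all others on the cytosolic axis, and WRF51 and WRF44 are the lowest on the mitochondrial axis.

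The same split by Myl7 gave score medians of 1.26, 1.29, and 1.31 in C, W, and WRF rats at or under the limit and 1.39, 1.35, and 1.45 above it. Cytosolic and mitochondrial enzymes for 1 amino acid formed 15 pairs, which are not all separate, since Fars2 and Eprs each serve in more than 1. The median ratio within a rat was higher in WRF than in C rats in 13 pairs, with Rars over Rars2 and Eprs over Pars2 as the exceptions. In the 13 it was 1.02 (Farsa and Farsb over Fars2) to 1.35 times (Wars over Wars2) that of C rats. The ratio was higher in 11 of 15 pairs without WRF51 and WRF62, in 9 of 15 pairs in WRF1 to WRF6, and in 10 of 15 pairs in W rats. Between WRF and C rats with Myl7 at or under 100 fpkm it was higher in 11 of 15 pairs, and above that limit in 8 of 15, with a median log2 ratio of 0.02. From C over W to WRF rats, the median ratio of Wars over Wars2 was 2.88, 3.00, and 3.89, that of Nars over Nars2 4.40, 4.61, and 5.82, and that of Aars over Aars2 4.60, 4.80, and 5.54. For Rars over Rars2 it was 6.10, 5.52, and 5.82, and for Eprs over Pars2 13.1, 14.01, and 11.6. C rats with Myl7 above the limit also exceeded the median of all C rats in 12 of 15 pairs.

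Between rats, members of a class had positive median correlations, weak in the mitochondrial class of C rats. Pairs of other genes were not compared, so no trait of the classes follows. The median correlation between pairs of genes was 0.361 within the cytosolic and 0.175 within the mitochondrial class over 18 C rats, and -0.06 between classes. Over 18 W rats these were 0.391, 0.312, and 0.212, and over the 16 WRF rats without WRF51 and WRF62 0.512, 0.356, and 0.222. The points share library, depth, and scaling, so these are descriptions.

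Time of day was examined with a 24-h harmonic in each group. At an unadjusted p under 0.05, 0 synthetases oscillated in C rats, 7 in W rats (Iars, Farsb, Gars, Vars, Lars2, Sars2, and Tars2), and 0 in WRF rats, against 5.91%, 3.05%, and 6.35% of all genes. With rescaled libraries the 7 in W rats were Eprs, Iars, Qars, Farsb, Gars, Wars, and Wars2, so Vars, Lars2, Sars2, and Tars2 did not pass. At q under 0.05 there were 0 in each group, against 0.848%, 0, and 0.0390% of all genes. Tars2 peaked at ZT12.4, ZT12.2, and ZT11.8 in the 3 W series fitted one by one, and Gars at ZT12.1, ZT10.1, and ZT8.69. Farsb peaked at ZT16.8, ZT13.9, and ZT12.9, Iars at ZT14.5, ZT9.58, and ZT12.1, and Vars at ZT13.7, ZT10.7, and ZT12.99. Lars2 peaked at ZT12.1, ZT14.3, and ZT14.6, and Sars2 at ZT11.6, ZT12.4, and ZT7.91. Since the 7 genes were picked by the fit over these same rats, their peaks by series test nothing. Relative amplitudes in W rats ran from 0.0799 in Farsb to 0.164 in Lars2. Leaving out W33 to W38 left Farsb and Gars at an unadjusted p under 0.05.

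Mean Lars2 over 3 W rats was 4.03 fpkm at ZT1 and 6.30 fpkm at ZT13, and over C rats 6.71 and 5.65 fpkm. Mean Tars2 in W rats was 18.8 fpkm at ZT1 and 22.5 fpkm at ZT9, and in C rats 20.96 and 20.91 fpkm. The lowest W mean stood at ZT1 in Iars, Gars, Vars, Lars2, and Tars2, at ZT5 in Farsb, and at ZT21 in Sars2. Among the 3 W rats at ZT1, W17 held the highest Myl7 of its group (20489 fpkm). W33 held the lowest mean log2 levels of the W rats, 3.70 over cytosolic and 2.33 over mitochondrial genes. The part of these libraries in the ZT1 means was not tested. Tested against the rhythm of C rats, 0 members differed in W rats, with 0 at an unadjusted limma p under 0.05 against 1.83% of all genes, and the smallest p was 0.0700 in Aars2. In WRF rats 0 members differed, with 0 at an unadjusted limma p under 0.05 against 5.76% of all genes. No gene of the table was called in either test.

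**Figure D5:**
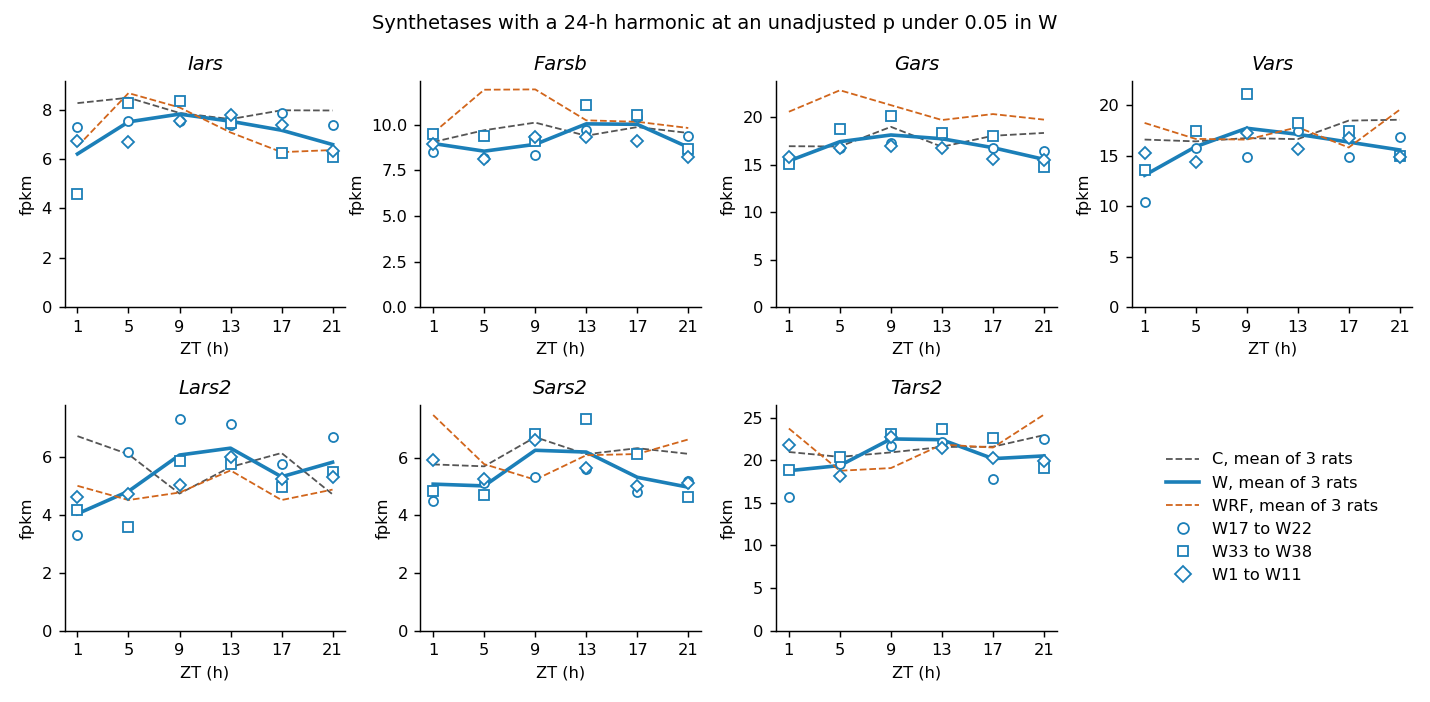
Levels in fpkm (vertical axes) of the 7 synthetases with an unadjusted p under 0.05 in W rats, by ZT in hours (horizontal axes); symbols are W rats by series, the solid line is the W mean and the dashed lines the C (grey) and WRF (orange) means of 3 rats. W means are lowest at ZT1 or ZT5 in Iars, Farsb, Gars, Vars, Lars2, and Tars2 and at ZT21 in Sars2, and the C and WRF means follow other courses; no difference in rhythm between groups passed the test.

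Fitted peak times were then counted, with no test. Within 3 h of the members' mean peak lay 10 of 34 in C rats, 24 of 34 in W rats (mean ZT11.1), and 25 of 34 in WRF rats (mean ZT7.49, with 18 of 20 cytosolic genes within 3 h of the cytosolic mean of ZT7.88). All genes were counted around their own mean peaks, ZT11.0 in C, ZT3.77 in W, and ZT9.12 in WRF rats. Within 3 h of these lay 2997, 4472, and 6335 of 10257, so the counts lie around other times than those of the members. By their titles WRF62 and WRF51 were taken at ZT5 and ZT9, on either side of that WRF mean; for 12 WRF rats other labels give another time. Between light (ZT1 to ZT9) and dark (ZT13 to ZT21) hours, the WRF minus C difference changed in 0 members, with 0 at an unadjusted limma p under 0.05 against 1.40% of all genes and the smallest p in Yars (limma p = 0.0538, adjusted p = 0.928). Its difference was 0.45 ± 0.12 (SE, limma adjusted p = 0.0595) in the light and 0.11 ± 0.12 (SE, limma adjusted p = 0.741) in the dark. The W minus C difference changed in 0 members, with 0 at an unadjusted limma p under 0.05 against 1.21% of all genes. For WRF minus C in light hours 11 members had an unadjusted p under 0.05, against 27% of all genes, and in dark hours 2, against 10.6%. Without WRF51 and WRF62 there was 1 in the light and 3 in the dark.

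Partner genes of the synthetases were read in the same way, with lists chosen with earlier results known. Of 3 scaffold proteins of the multi-synthetase complex, Aimp1 rose in WRF rats, from a median of 28.1 to 30.9 fpkm (0.17 ± 0.06 SE, Kruskal-Wallis adjusted p = 0.0367), while Aimp2 and Eef1e1 had Kruskal-Wallis adjusted p-values of 0.0722 and 0.145. Of 6 genes for tRNA quality control and end processing, 2 rose: Ptrh2, a peptidyl-tRNA hydrolase, from 3.52 to 3.86 fpkm, and Ptrhd1, which carries a domain of that kind, from 3.27 to 4.40 fpkm. Their Kruskal-Wallis adjusted p-values were 0.0237 and 0.0181. Of 4 further genes of mitochondrial charging 0 were called, with the smallest Kruskal-Wallis p in Gatc (adjusted p = 0.0872), and of 4 genes of selenocysteine charging 0 were called.

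Of 24 genes of the amino acid response under ATF4, 2 rose in WRF rats against C rats and 0 fell, a share close to the 8.13% of all genes called higher. Atf5, a transcription factor of that response, had a median of 27.6 fpkm in C and 36.2 fpkm in WRF rats (0.35 ± 0.09 SE, limma adjusted p = 0.00843), and Mthfd2, a mitochondrial folate enzyme, 1.32 and 2.25 fpkm (Kruskal-Wallis adjusted p = 0.0352). The median log2 ratio over these 24 genes was 0.17, and over all genes 0.08. By WRF series, 0 of the 24 were called in WRF1 to WRF6, 10 were higher and 3 lower in WRF41 to WRF62, against 23.4% and 6.92% of all genes, and 7 were higher in WRF50 to WRF55, against 15.5%. Herpud1 and Cebpb of this list oscillated in C rats (harmonic regression, q = 0.0039 and 0.0435). Of 14 genes of the interferon gamma response 0 were called in WRF rats, with a median log2 ratio of -0.11. By series, limma called 0 of the 14 in each. The median differences were 0.02 in WRF1 to WRF6, 0.23 in WRF41 to WRF62, and 0.16 in WRF50 to WRF55. In the last 2 together without WRF51 and WRF62, again as a description, 3 were lower, against 12.1% of all genes, and the median was -0.16.

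Cell type markers were read in the same comparison, in which 8.13% of all genes were called higher. Of 8 fibroblast markers Postn and Thy1 were called higher in WRF than in C rats, with summed levels of 420 to 2180 fpkm in C and 565 to 1394 fpkm in WRF rats. Macrophage markers summed to 38.3 to 178 fpkm in C and 63.3 to 506 fpkm in WRF rats, with 0 of 8 called. Cardiomyocyte markers summed to 15999 to 47075 fpkm in C and 650 to 44484 fpkm in WRF rats, with 0 of 8 called. Atrial markers summed to 48.3 to 55788 fpkm in C (median 138) and 60.9 to 54998 fpkm in WRF rats (median 1154). Of these 0 of 4 were called, with a median log2 ratio of 3.37. Lymphocyte markers summed to 8.07 to 27.8 fpkm in C and 12.9 to 933 fpkm in WRF rats, with 0 of 7 called. Liver markers summed to 18.5 to 204 fpkm and 29.4 to 217 fpkm, with 0 of 8 called and a median log2 ratio of 1.84. Endothelial markers summed to 116 to 230 fpkm and 92.4 to 273 fpkm, with 0 of 5 called. The median log2 ratio was 0.70 over fibroblast, 0.63 over macrophage, 0.43 over lymphocyte, 0.07 over cardiomyocyte, and -0.14 over endothelial markers. WRF62 set the lymphocyte maximum, and WRF51 set the macrophage maximum and the cardiomyocyte minimum. Without both, the WRF ranges were 12.9 to 35.1 fpkm for lymphocyte and 63.3 to 265 fpkm for macrophage markers. They were 26492 to 44484 fpkm for cardiomyocyte and 105 to 186 fpkm for endothelial markers. By series against all C rats, limma called 0 markers of these lists in WRF1 to WRF6, against 0.185% of all genes higher and 0.0877% lower. In WRF41 to WRF62, 4 of 4 atrial, 6 of 8 macrophage, 6 of 7 lymphocyte, and 4 of 8 fibroblast markers were higher, against 23.4% of all genes. There 3 of 5 endothelial and 1 of 8 cardiomyocyte markers were lower, against 6.92%. In WRF50 to WRF55, 2 of 8 macrophage and 2 of 8 fibroblast markers were higher, against 15.5%, and 1 of 8 cardiomyocyte markers was lower, against 2.10%. The last 2 series together without WRF51 and WRF62 are again given as a description. In them 4 of 4 atrial, 5 of 8 macrophage, 5 of 8 fibroblast, and 1 of 7 lymphocyte markers were higher, against 25.9% of all genes. There 2 of 5 endothelial and 1 of 8 cardiomyocyte markers were lower, against 12.1%. Markers and synthetases were thus called in the same series, in which calls were also more frequent over all genes. The part of the markers in the synthetase differences was not tested beyond the Myl7 split.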

How the data were processed

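The deposited table held FPKM values that the authors made with TopHat2 and Cufflinks on the rn6 genome. Every one of its 10257 genes exceeded 1 fpkm in at least 18 of 54 libraries. Versions are not given in the sources used here. The study reports sequencing depth in its supplement, which was not used here. Depth was therefore read only as a relative value, from the steps between low FPKM values, and no counting interval is given. The table held 497 entries that share all values with another, none of them a synthetase. The titles and the other labels of 12 WRF rats name different times, and the title was used.

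Group differences were called as in the study's methods, with Kruskal-Wallis and Benjamini-Hochberg adjustment over all genes followed by a two-sided Mann-Whitney test (scipy 1.17.1). Log2(fpkm + 1) values were fitted with limma 3.58.1 in R 4.3.3 for differences, standard errors, and adjusted p-values; this scale understates the change of low genes. Rhythm was fitted as a 24-h harmonic on fpkm in each group, and scripts were tested on simulated data. Each rat is 1 library. Every synthetase found could be named; of other lists, genes that were called or rhythmic, and otherwise up to 4 with the smallest Kruskal-Wallis p. Members and lists were chosen with earlier results of these data known. Alternatives were another scaling, filter, and pseudocount, limma, the Myl7 split, and leaving out libraries or series. The comparisons of single WRF series or of 2 together with C rats, the distance of WRF1 to WRF6 from the other WRF rats, the overlap of series, and the Myl7 contrast were added after seeing the data. Promoter sequences are RefSeq, build GRCr8.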

Additional observations from a re-analysis of the deposited data

How the results depend on the processing

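With rescaled libraries, 0 cytosolic and 0 mitochondrial synthetases were called higher in WRF than in C rats and 0 higher than in W rats, in place of 3, 1, and 4. With genes below a mean of 5 fpkm left out, 6 of 19 cytosolic genes were called higher than in C rats, against 965 of 6294 genes. This filter removes Pars2 and leaves 7 of 14 mitochondrial genes, of which 0 were called, so the call of Pars2 could not recur. Without WRF51 and WRF62, 0 cytosolic genes were called higher than in C and 1 gene higher than in W rats. Without WRF51 or without WRF62 alone, these were 1 and 2. By limma, 0 mitochondrial genes were higher than in C and 8 genes higher than in W rats. Within libraries with Myl7 at or under 100 fpkm, limma called 0, 0, and 0, and within those above it 2 were lower than in C and 7 higher than in W rats. Rhythm at an unadjusted p under 0.05 was reached by 1 gene in C and 1 in WRF rats on the log2 scale, and in WRF rats by 1 with rescaling, 1 without WRF51 and WRF62, and 2 without WRF62.

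By the rank tests, leaving out 1 series of 6 rats at a time, 0 to 12 cytosolic and 0 to 1 mitochondrial genes were higher and 0 to 2 lower in WRF than in C rats, 0 to 14 were higher than in W rats, and 0 to 2 differed between W and C rats. Over all 10257 genes these ranges were 0 to 2556 higher and 0 to 1151 lower than in C rats, and 0 to 2613 higher than in W rats. Between W and C rats they were 0 to 256 higher and 0 to 825 lower. The 12 came without WRF1 to WRF6, where 2556 genes were higher. Without either other WRF series 0 members, and 0 of all genes, were called. The 2 lower genes, Iars and Wars2, came without C33 to C38, where 1151 genes were lower. Against C rats the calls were Gars and Pars2 without C17 to C22 or W33 to W38, Gars and Hars without C25 to C30, Gars, Hars, and Pars2 without W17 to W22, and Hars without W1 to W11. By limma, 1 member was higher without WRF41 to WRF62 and 0 without WRF50 to WRF55, against 345 and 403 of 10257 genes. Without WRF1 to WRF6, 15 members were higher and 2 lower, against 3146 and 765 of all genes. Without C33 to C38, 5 were higher and 4 lower, against 1521 and 1353. Without C17 to C22 or without C25 to C30, 0 were called, against 340 and 107 genes higher and 4 and 5 lower. Rhythm counts ran from 0 to 1 in C, 2 to 7 in W, and 0 to 1 in WRF rats, and the difference of the class scores (0.11) from 0.05 to 0.15. In WRF1 to WRF6 alone against C rats, the sign turned in Gars (-0.081), Sars (-0.081), and Yars (-0.010). The causes were not tested.

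Rats that share a number across groups did not deviate together in every pair (7 of 12 correlations above 0.1 for C and W rats, 2 of 3 for W and WRF rats), so the numbers were not taken as pairs. With the replicate block, 5 synthetases differed between W and C rats at an unadjusted limma p under 0.05, against 1707 of 10257 genes. Without it these were 5 synthetases and 887 genes. Between WRF and W rats, 1 synthetase and 324 genes passed with the block, and 0 synthetases and 268 genes without it. In limma, of 21 alternatives each, the difference passed in 13 for Gars, 12 for Sars, and 12 for Yars. It passed in 3 for Hars and 3 for Pars2, which had not passed to begin with. The 21 include single WRF series against C rats and the pool without WRF1 to WRF6, WRF51, and WRF62, which was chosen on these values. Leaving out W21 or a W series removed no WRF or C rat, so those alternatives could change little. These tallies are thus a description and no measure of robustness. Depth per library was read only as a relative value, and 3 rats per time limit the tests of rhythm. The p-values between groups measure the spread over all rats of a group, each counted as independent. No term for series was fitted, although the series are nested in groups.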
